A study of Homo sapiens with 3 samples.

Results

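The 10 genes described here belong to the NF-kB signalling pathway. They were taken by symbol from the deposited count table and comprise the subunit genes NFKB1, NFKB2 and RELB, the inhibitors and feedback regulators NFKBIA, BCL3 and TNFAIP3, the adaptor and signalling genes BIRC3, TRAF1 and IRAK2, and the adhesion target ICAM1. All 10 were found among 24424 listed genes, and 9 of them were among the 11956 genes that averaged 50 or more counts over the 3 libraries, which are called measured here. BIRC3 was under that minimum. Messenger RNA came from A375SM, a metastatic derivative of the human melanoma line A375. Each of 3 populations had received a lentiviral vector with a green fluorescent reporter and had been selected for that reporter. They carried a hairpin against PRAME (shPRAME, genotype PRAME knockdown), a hairpin against BAP1 (shBAP1, genotype BAP1 knockdown) or the control construct (shEmpty, genotype WT). The series' design text calls shEmpty a hairpin without a target, whereas its name reads as an empty vector, and which of these it was is not settled by the labels. The study set each knockdown against shEmpty. Each population gave 1 library, so differences could not be checked against replicates and carry no p-value. The labels name 1 construct per target, and what a construct does to unintended transcripts cannot be told apart from the loss of its target.

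NF-kB factors are dimers of Rel-domain proteins that are held in the cytoplasm by inhibitors of the IkB family. In the canonical route, signals from tumour necrosis factor, interleukin 1 or Toll-like receptors activate the IKK kinase complex, IkB-alpha is destroyed, and dimers of RELA and the NFKB1 product enter the nucleus. In the alternative route, the kinase encoded by MAP3K14 promotes processing of the NFKB2 product, which pairs with RELB. Many of the genes that NF-kB switches on encode its own subunits and inhibitors, so their transcripts are often read beside those of inflammatory targets. Melanoma cells are known to use the pathway for survival and cytokine production.

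RefSeq promoter windows (GRCh38.p14), which run from 250 bases before a transcription start to 50 bases after it, were found for 9 of the 10 genes. RELB is named without one. They are shown because kappa B elements, the sites that NF-kB binds, lie in the promoters of several of these genes. Both strands were searched for the 10-letter NF-kB consensus and for the shorter motif GGGANTTTC, which overlaps it. The consensus was matched in 7 of the 14 windows, against 5.91% of all 35116 windows, and in 6 of the 9 genes, against 8.92% of the 9126 measured genes that have a window. The shorter motif was matched in 4 of the 9 genes, against 1.47% of those measured genes. The AP-1 motif TGANTCA was matched in 0 of the 9, against 7.03%. Since the genes were picked as NF-kB pathway genes and targets, these shares describe them and are no test. BIRC3, which was not measured, is among the 9. Windows of TRAF1, IRAK2 and ICAM1 held no match to either kappa B motif, which says only that these letters are not in them. The windows of NFKB1, NFKB2, TNFAIP3, BIRC3 and NFKBIA that held a match are printed below with the matched letters in capitals, each read 5′ to 3′ in the direction of the gene. The NFKB1 window with a match lies on the plus strand at chr4:102501109-102501408, and a further NFKB1 window at chr4:102501684-102501983 held none. The NFKB2 windows with a match lie on the plus strand at chr10:102394328-102394627 (window 2 of 3) and chr10:102395455-102395754 (window 3 of 3). The others lie at chr6:137867009-137867308 (TNFAIP3, plus strand), chr11:102317234-102317533 (BIRC3, plus strand) and chr14:35404700-35404999 (NFKBIA, minus strand).
NFKB1: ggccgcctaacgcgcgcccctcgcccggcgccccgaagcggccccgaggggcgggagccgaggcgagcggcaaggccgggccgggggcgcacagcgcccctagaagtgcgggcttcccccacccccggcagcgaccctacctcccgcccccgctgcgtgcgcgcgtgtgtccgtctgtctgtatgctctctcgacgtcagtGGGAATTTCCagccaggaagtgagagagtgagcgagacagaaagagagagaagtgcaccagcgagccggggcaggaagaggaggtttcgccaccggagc
NFKB2, window 2: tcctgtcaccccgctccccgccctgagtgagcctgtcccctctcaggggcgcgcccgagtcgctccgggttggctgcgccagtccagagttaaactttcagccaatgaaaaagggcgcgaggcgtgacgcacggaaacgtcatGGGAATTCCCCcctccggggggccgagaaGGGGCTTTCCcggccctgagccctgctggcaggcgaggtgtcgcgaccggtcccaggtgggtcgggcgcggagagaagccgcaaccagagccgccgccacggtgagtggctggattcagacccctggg
NFKB2, window 3: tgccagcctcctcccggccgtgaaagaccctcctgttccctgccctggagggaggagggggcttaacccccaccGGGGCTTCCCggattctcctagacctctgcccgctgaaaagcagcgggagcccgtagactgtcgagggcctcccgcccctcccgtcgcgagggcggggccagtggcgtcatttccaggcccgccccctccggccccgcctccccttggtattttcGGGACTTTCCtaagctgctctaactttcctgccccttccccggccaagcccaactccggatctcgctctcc
TNFAIP3: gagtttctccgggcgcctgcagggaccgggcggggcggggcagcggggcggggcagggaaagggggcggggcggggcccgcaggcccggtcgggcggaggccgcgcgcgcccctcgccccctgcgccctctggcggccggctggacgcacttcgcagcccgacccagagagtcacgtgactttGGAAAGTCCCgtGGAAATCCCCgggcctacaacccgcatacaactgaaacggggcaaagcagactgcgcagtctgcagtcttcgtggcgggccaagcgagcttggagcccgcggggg
BIRC3: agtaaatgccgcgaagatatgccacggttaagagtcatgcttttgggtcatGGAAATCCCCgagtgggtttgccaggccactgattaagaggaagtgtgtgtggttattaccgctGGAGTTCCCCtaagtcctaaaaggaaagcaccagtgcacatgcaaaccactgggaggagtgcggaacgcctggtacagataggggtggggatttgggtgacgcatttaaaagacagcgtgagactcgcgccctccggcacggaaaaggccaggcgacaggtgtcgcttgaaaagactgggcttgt
NFKBIA: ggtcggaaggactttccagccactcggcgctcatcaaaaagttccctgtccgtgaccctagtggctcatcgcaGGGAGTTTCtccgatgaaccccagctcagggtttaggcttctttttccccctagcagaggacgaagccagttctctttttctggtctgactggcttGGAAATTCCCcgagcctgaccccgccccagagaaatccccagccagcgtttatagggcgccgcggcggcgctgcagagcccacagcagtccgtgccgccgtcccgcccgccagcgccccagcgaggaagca

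**Figure D1:**
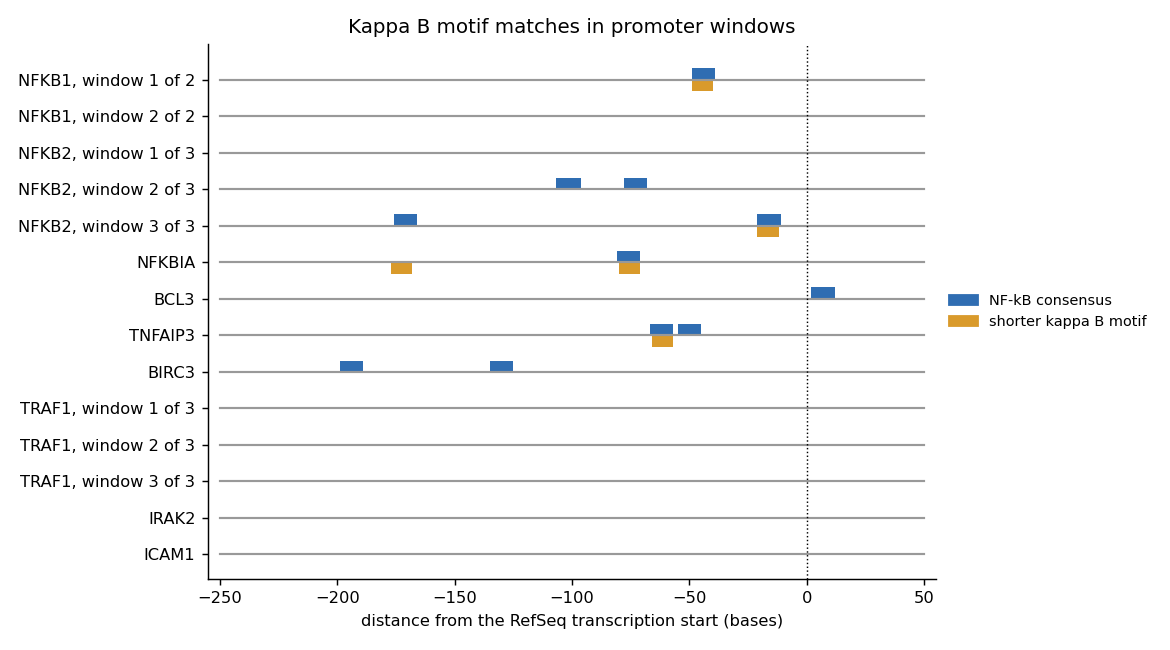
Matches to the kappa B motifs by distance from the RefSeq transcription start (bases), with 1 line per promoter window and upper bars for the NF-kB consensus and lower bars for the shorter motif. Matches lie in windows of NFKB1, NFKB2, NFKBIA, BCL3, TNFAIP3 and BIRC3, and none in those of TRAF1, IRAK2 and ICAM1.

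In TNFAIP3 the pair of consensus matches lay close together, with their first bases 67 and 55 bases before the start. In NFKB2 matches began 107, 106 and 78 bases before the start of window 2, the first pair of them overlapping on opposite strands, and 176 and 21 bases before the start of window 3. The consensus match began 81 bases before the start in NFKBIA and 49 bases before it in NFKB1, and those of BIRC3 began 199 and 135 bases before it. The BCL3 match lay from base 3 to base 12 after its start, so that limiting the search to the bases before the start left 5 genes with a match. A match describes letters and not a bound site, and the window belongs to a newer assembly than the one named for the counts.

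The libraries held 18456328 counts (shPRAME), 14181829 counts (shBAP1) and 19430130 counts (shEmpty). Levels are CPM values (counts as a rate per library, scaled by TMM), with exact 95% Poisson intervals, and ratios are of scaled counts, with exact 95% conditional binomial intervals. Both cover counting error only. To be called, a measured gene needed a ratio of at least 2-fold in either direction and an interval that left out no change. PRAME stood at 32.9% of shEmpty in shPRAME and BAP1 at 35.2% of shEmpty in shBAP1. In the other knockdown library PRAME stood at 139% of shEmpty (134% to 144%) and BAP1 at 97.9% (91.7% to 104%). Of 10 melanocyte lineage markers 8 were measured, of which 1 was called higher and 2 lower in shPRAME (median log2 ratio -0.62) and 4 higher and 0 lower in shBAP1 (median 0.77). The shares of all measured genes called were 10.2% higher and 9.08% lower in shPRAME and 5.53% higher and 8.56% lower in shBAP1. SOX10, a transcription factor of the lineage, had 12019, 5442 and 9482 counts in shPRAME, shBAP1 and shEmpty. MITF, the master regulator of pigment genes, had 2088, 3543 and 5807 and was called lower in shPRAME, and S100A1 had 7406, 1833 and 3664 and was called higher there. The pigment enzymes were high in shBAP1 and low in the other libraries, with DCT at 6, 1668 and 192 counts, TYR at 0, 573 and 4 and TYRP1 at 1, 1037 and 0. TYR and TYRP1 passed the count minimum only through shBAP1, so their place among the measured markers follows from that library. DCT was called lower in shPRAME, and all 3 enzymes and S100B, with 790, 2768 and 1356 counts, were called higher in shBAP1. PMEL, with 8, 34 and 6 counts, and MLANA, with 7, 19 and 3, were under the count minimum.

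In the shPRAME library most of the NF-kB genes stood above shEmpty, led by IRAK2 and TRAF1, while the inhibitors NFKBIA and TNFAIP3 stood below it. Of the 9 measured genes 2 were called higher, against 10.2% of all measured genes, and 0 lower, against 9.08%. Their median log2 ratio was 0.68, against -0.06 over all measured genes, and 7 ratios were above and 2 below no change. Since the genes were chosen with earlier results of these data known, a distance from all measured genes may follow from the choice. IRAK2 passed the count minimum only through shPRAME, the library where it was called, with 114, 30 and 28 counts in shPRAME, shBAP1 and shEmpty. In the shBAP1 library the 9 genes went both ways. There 1 of the 9 was called higher, against 5.53% of all measured genes, and 0 lower, against 8.56%, with a median log2 ratio of 0.20 against -0.03 over all. This gene was TRAF1. Under total-count scaling the calls over all measured genes in shBAP1 were 829 higher and 837 lower, against 661 and 1024 with TMM, and the median log2 ratio moved to 0.09. Of the 9, 6 had their highest level in shPRAME, 2 in shBAP1 and 1 in shEmpty. In bulk RNA, fewer cells that express a gene and less RNA per cell cannot be told apart.

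**Figure D2:**
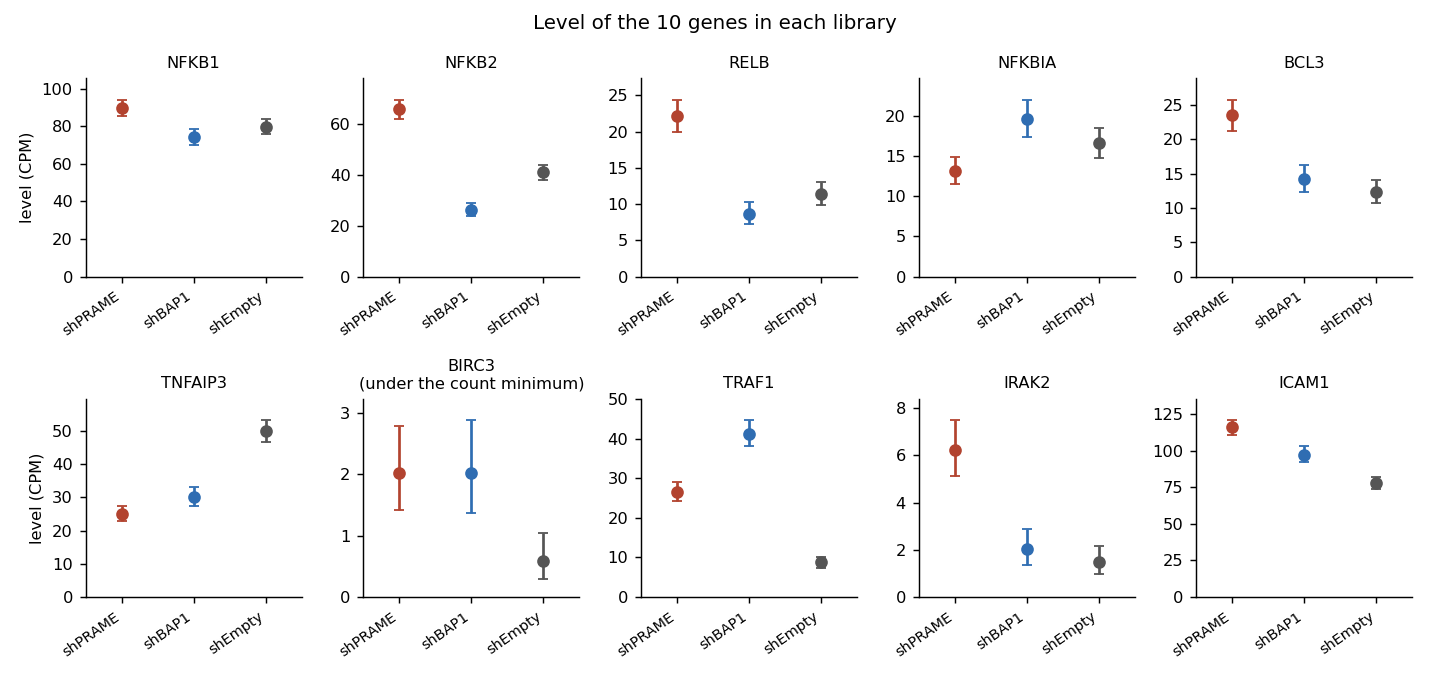
Level of each of the 10 genes (CPM, each axis from 0) in shPRAME, shBAP1 and shEmpty, 1 library each, with 95% Poisson counting intervals. NFKB2, RELB, BCL3, IRAK2 and ICAM1 are highest in shPRAME, TRAF1 is highest in shBAP1, and TNFAIP3 is highest in shEmpty at 50 CPM.

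Of the 3 subunit genes, 0 were called against shEmpty in either knockdown library, and NFKB2 and RELB lay further from shEmpty than NFKB1 did. NFKB1, which encodes the precursor of the subunit p50, was at 89.7 CPM (85.4 to 94.1) in shPRAME, 74.2 CPM (69.8 to 78.7) in shBAP1 and 79.6 CPM (75.6 to 83.8) in shEmpty. Its ratio to shEmpty was 1.13 in shPRAME (1.05 to 1.21) and 0.931 in shBAP1 (0.861 to 1.01), so shBAP1 and shEmpty were not distinguishable by counting error, and under total-count scaling the log2 ratio in shBAP1 was 0.02 instead of -0.10. NFKB2, which encodes the precursor of p52 and whose promoter windows with a match are printed above, was at 65.6 CPM (61.9 to 69.4) in shPRAME, 26.3 CPM (23.7 to 29) in shBAP1 and 40.9 CPM (38.0 to 43.9) in shEmpty. The 3 intervals were separate, with shPRAME highest and shBAP1 lowest. NFKB2 was thus at 1.60 times shEmpty in shPRAME (1.46 to 1.76) and at 0.643 times in shBAP1 (0.567 to 0.727), both within the 2-fold limit. RELB, the partner of p52, was at 22.2 CPM (20 to 24.4) in shPRAME, 8.69 CPM (7.25 to 10.3) in shBAP1 and 11.4 CPM (9.94 to 13.1) in shEmpty. It had the same order as NFKB2, with ratios to shEmpty of 1.94 in shPRAME (1.64 to 2.30) and 0.761 in shBAP1 (0.607 to 0.951). The shPRAME ratio was just within the limit and passed it under upper-quartile scaling (log2 ratio 1.04).

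The inhibitors did not move together. NFKBIA, which encodes IkB-alpha, the inhibitor that NF-kB itself resupplies, was at 13.1 CPM (11.5 to 14.9) in shPRAME, 19.6 CPM (17.4 to 22) in shBAP1 and 16.6 CPM (14.8 to 18.5) in shEmpty. Its ratios to shEmpty were 0.791 (0.665 to 0.939) in shPRAME and 1.18 (1.00 to 1.39) in shBAP1, and its lowest level was in the library where NFKB2 and RELB were highest. BCL3, an IkB-like nuclear protein that works with p50 and p52 dimers, was at 23.5 CPM (21.3 to 25.8) in shPRAME, 14.2 CPM (12.4 to 16.3) in shBAP1 and 12.4 CPM (10.8 to 14.1) in shEmpty. The shPRAME ratio was 1.90 (1.61 to 2.23), past the limit only under upper-quartile scaling among the scalings tried (log2 ratio 1.01), and the shBAP1 ratio of 1.15 (0.948 to 1.39) did not leave out no change. TNFAIP3, which encodes A20, a ubiquitin-editing enzyme that shuts off signals from tumour necrosis factor receptors, was at 25.1 CPM (22.9 to 27.5) in shPRAME, 30.2 CPM (27.4 to 33.1) in shBAP1 and 50 CPM (46.8 to 53.3) in shEmpty. It was the lowest of the 9 relative to shEmpty in both knockdown libraries, which share that control. Its ratio was 0.503 in shPRAME (0.448 to 0.563), at the edge of the 2-fold limit, and 0.604 in shBAP1 (0.539 to 0.677). Of all measured genes, 9.21% had a lower ratio than TNFAIP3 in shPRAME and 13.7% in shBAP1.

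TRAF1 was the member furthest from shEmpty in shBAP1. It encodes a TRAF protein that binds tumour necrosis factor receptor 2 with TRAF2 and cIAP proteins, and it had 486 counts in shPRAME, 613 in shBAP1 and 164 in shEmpty. These were 26.6 CPM (24.3 to 29.1), 41.3 CPM (38.1 to 44.7) and 8.75 CPM (7.46 to 10.2), so both knockdown libraries stood clear of the control. TRAF1 was 3.04-fold higher in shPRAME (2.54 to 3.65) and 4.72-fold higher in shBAP1 (3.96 to 5.64). Of all measured genes, 4.90% had a higher ratio than TRAF1 in shPRAME and 1.52% in shBAP1. BIRC3, which encodes the ubiquitin ligase cIAP2 of the same receptor complexes, had 37, 30 and 11 counts in shPRAME, shBAP1 and shEmpty and so was not called. Its ratio to shEmpty was 3.45 in shPRAME (1.72 to 7.49) and 3.44 in shBAP1 (1.68 to 7.61), and its level was 2.02 CPM in each knockdown library, against 0.587 CPM in shEmpty. IRAK2, a kinase-like protein that carries signals from interleukin 1 and Toll-like receptors to TRAF6, had 114 counts in shPRAME, 30 in shBAP1 and 28 in shEmpty. These were 6.24 CPM (5.14 to 7.49), 2.02 CPM (1.36 to 2.88) and 1.49 CPM (0.993 to 2.16), so that shPRAME stood alone. IRAK2 was 4.17-fold higher in shPRAME (2.74 to 6.55), with 2.92% of measured genes at a higher ratio, and its ratio in shBAP1 was 1.35 (0.781 to 2.35).

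ICAM1, the endothelial and tumour cell ligand of leukocyte integrins and a classical NF-kB target, was at 116 CPM (111 to 121) in shPRAME, 97.4 CPM (92.4 to 103) in shBAP1 and 78.1 CPM (74.1 to 82.2) in shEmpty. The intervals were separate, with ratios of 1.49 (1.39 to 1.59) and 1.25 (1.16 to 1.34), both within the 2-fold limit. Exons of ICAM1 and of TNFAIP3 overlap exons of antisense genes in GENCODE release 29, and whether counting used the strand is not given in the labels, so reads of those genes cannot be told apart from theirs. Per kilobase of exon, with the union of GENCODE exons as the length, ICAM1 was the most abundant of the 10 in every library, at 31.3, 26.3 and 21.1 CPM per kilobase in shPRAME, shBAP1 and shEmpty. BIRC3 was the least abundant, at 0.269, 0.269 and 0.0781 CPM per kilobase. NFKB2 was at 14.6 CPM per kilobase beside 14.3 for NFKB1 in shPRAME, at 5.86 beside 11.9 in shBAP1 and at 9.12 beside 12.7 in shEmpty.

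**Figure D3:**
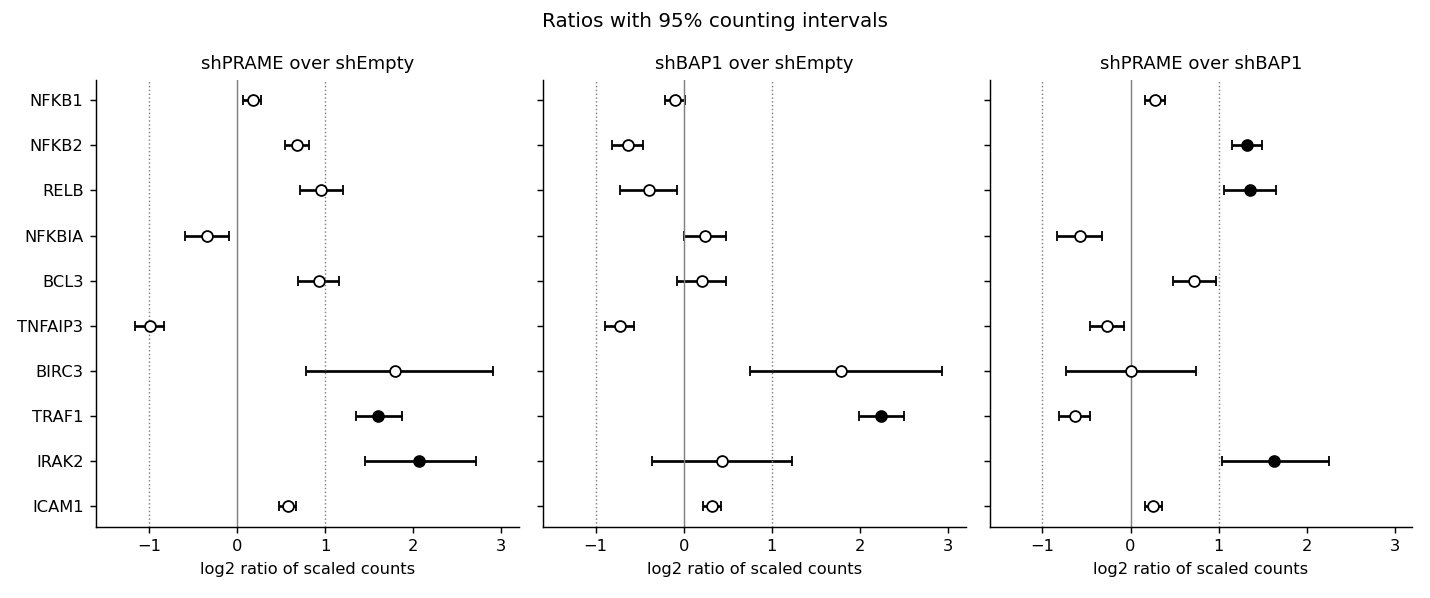
Log2 ratios of scaled counts for the 10 genes, with 95% counting intervals, for shPRAME over shEmpty, shBAP1 over shEmpty and shPRAME over shBAP1. Dotted lines mark 2-fold and filled points mark called genes, which are TRAF1 and IRAK2 on the left, TRAF1 in the middle, and NFKB2, RELB and IRAK2 on the right.

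Set directly against each other, the knockdown libraries differed most in NFKB2, RELB and IRAK2. Of the 9 measured genes 3 were called higher in shPRAME than in shBAP1, against 14.2% of all measured genes, and 0 lower, against 10.9%. IRAK2, which passed the count minimum only through shPRAME, was 3.09-fold higher there (2.05 to 4.78). RELB was 2.55-fold higher in shPRAME (2.09 to 3.13) and NFKB2 2.5-fold (2.22 to 2.81). TRAF1 stood at 0.644 times its shBAP1 level in shPRAME (0.570 to 0.726) and NFKBIA at 0.670 times (0.562 to 0.797), both within the limit. The ratio of BIRC3 was 1.00 (0.602 to 1.68). The median log2 ratio of the 9 was 0.27, against -0.06 over all measured genes.

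Shares of counts within pairs of related genes do not depend on how libraries are scaled. The pairs were chosen after the values were seen, and their intervals are exact Clopper-Pearson 95% intervals. NFKB2 made up 42.2% of the NFKB2 and NFKB1 counts in shPRAME (40.4% to 44.1%), 26.2% in shBAP1 (23.9% to 28.5%) and 33.9% in shEmpty (32.0% to 35.9%). RELB made up 21.7% of the RELB and RELA counts in shPRAME (19.8% to 23.6%), 10.6% in shBAP1 (8.89% to 12.4%) and 11.8% in shEmpty (10.3% to 13.4%). Both genes of the alternative route thus had their largest share in shPRAME, and the RELB intervals of shBAP1 and shEmpty overlapped. TRAF1 made up 61.8% of the TRAF1 and TRAF2 counts in shPRAME (58.3% to 65.2%), 64.3% in shBAP1 (61.1% to 67.3%) and 21.1% in shEmpty (18.3% to 24.1%). TRAF2, which joins TRAF1 in receptor complexes, had 301, 341 and 613 counts and was not called in either comparison with shEmpty. The balance of this pair separated both knockdown libraries from the control. IRAK2 made up 4.55% of the IRAK2 and IRAK1 counts in shPRAME (3.77% to 5.44%), 0.641% in shBAP1 (0.433% to 0.914%) and 0.747% in shEmpty (0.497% to 1.08%). IRAK1 itself stood at 0.659 times shEmpty in shPRAME (0.626 to 0.694) and 1.58 times in shBAP1 (1.51 to 1.65), so this share reflects both genes. BIRC3 made up 2.08% of the BIRC3 and BIRC2 counts in shPRAME (1.47% to 2.86%), 2.58% in shBAP1 (1.75% to 3.67%) and 0.492% in shEmpty (0.246% to 0.879%). TNFAIP3 made up 65.7% of the TNFAIP3 and NFKBIA counts in shPRAME (62.0% to 69.2%), 60.6% in shBAP1 (57.0% to 64.2%) and 75.1% in shEmpty (72.6% to 77.4%). BIRC3 and TNFAIP3 each separated shEmpty from the knockdown libraries, in opposite directions.

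**Figure D4:**
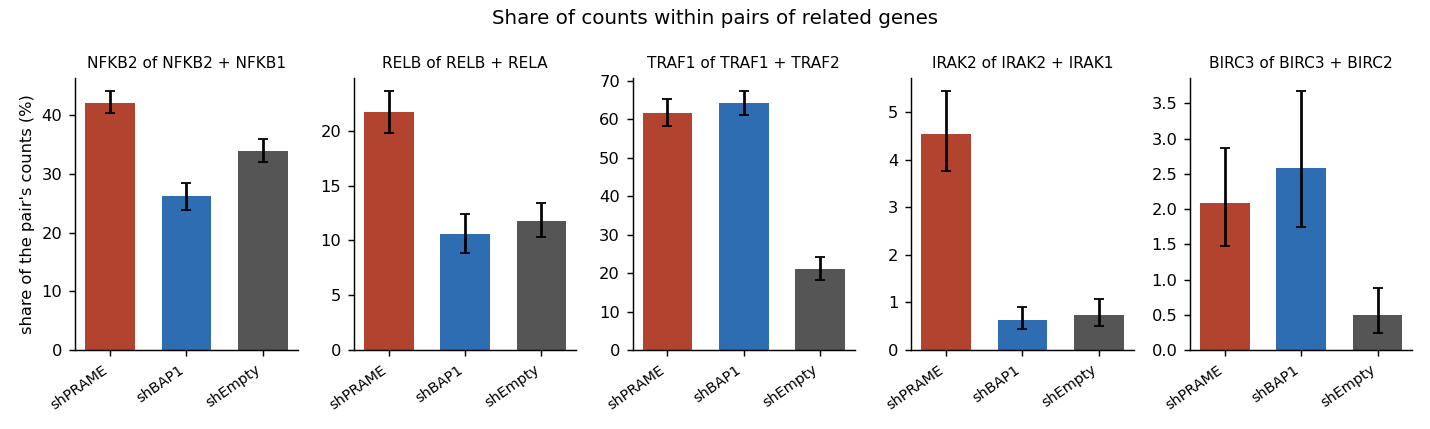
Share of counts (%) of NFKB2, RELB, TRAF1, IRAK2 and BIRC3 within a pair with a related gene in shPRAME, shBAP1 and shEmpty, with exact 95% binomial intervals and axes from 0. TRAF1 stands at 61.8% and 64.3% in the knockdown libraries, against 21.1% in shEmpty, and IRAK2 at 4.55% in shPRAME, against 0.747% in shEmpty.

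The rest of the pathway was read from lists of its parts, which were also chosen with earlier results of these data known. Over all measured genes, the shares called higher and lower were 10.2% and 9.08% in shPRAME and 5.53% and 8.56% in shBAP1, and lists of 6 to 16 genes with 0 or 1 call are not set apart by their counts. Of 6 other measured Rel and IkB family genes 0 were called in shPRAME (median log2 ratio -0.20) and 1 was called higher in shBAP1 (median 0.17). RELA, the main activating subunit of the canonical route, was at 80.1 CPM in shPRAME, 73.6 CPM in shBAP1 and 85.4 CPM in shEmpty, with ratios of 0.938 (0.873 to 1.01) and 0.862 (0.797 to 0.931). The called gene was NFKBIZ, an atypical nuclear IkB protein, which was 2.20-fold higher in shBAP1 (1.94 to 2.48). Of 11 measured IKK complex genes and upstream kinases 0 were called in shPRAME (median -0.13) and 1 was called higher in shBAP1 (median 0.25). That gene was MAP3K7, which encodes the kinase TAK1 upstream of IKK, at 2.17-fold higher (1.99 to 2.36). Of 16 measured receptor adaptors 0 were called in either knockdown library, with medians of -0.08 in shPRAME, which turned to 0.01 under upper-quartile scaling, and 0.08 in shBAP1. IRAK3, an inhibitory relative of IRAK2 known from macrophages, was under the count minimum with 1, 14 and 56 counts in shPRAME, shBAP1 and shEmpty. Of 16 measured ubiquitin editors and negative regulators 0 were called in shPRAME (median 0.16), while NLRC5, described as an inhibitor of NF-kB signalling, had a ratio of 1.98 (1.61 to 2.45) and was called higher under the other 3 scalings. In shBAP1 1 was lower (median 0.04), which was RNF11, a partner of A20, at 2.53-fold lower (2.26 to 2.84).

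Several receptors stood above the control in each knockdown library. Of 11 measured receptors that signal to NF-kB 5 were called higher and 0 lower in shPRAME, with a median log2 ratio of 0.86, and 3 higher and 1 lower in shBAP1, with a median of 0.69. Over all measured genes 10.2% were called higher and 9.08% lower in shPRAME, with a median of -0.06, and 5.53% higher and 8.56% lower in shBAP1, with a median of -0.03. The minimum is a mean over the 3 libraries, and TLR1 and NGFR passed it only through the knockdown libraries, NGFR through shBAP1. This favours higher calls, so the counts and medians of the list are not free of the filter. Nor are they free of the choice of the list, made with earlier results of these data known. TLR1, which pairs with TLR2 to sense bacterial lipoproteins, was 6.15-fold higher in shPRAME (3.12 to 13.5) and 10.3-fold higher in shBAP1 (5.35 to 22.4), on 10 counts in shEmpty. EDA2R, a receptor for ectodysplasin, was 6.01-fold higher in shPRAME (4.89 to 7.46) and 3.79-fold higher in shBAP1 (3.03 to 4.76). NGFR, the low-affinity neurotrophin receptor and a neural crest marker, was 3.87-fold higher in shPRAME (1.82 to 9.18) and 134-fold higher in shBAP1 (70.1 to 293), on 34, 953 and 9 counts in shPRAME, shBAP1 and shEmpty. TNFRSF12A (the TWEAK receptor, 3.27-fold, 3.0 to 3.57) and TLR4 (3.0-fold, 2.60 to 3.47), picked with their values known, were the other receptors called higher in shPRAME. IL1R1, the signalling receptor for interleukin 1 and the gene called lower in shBAP1, was 3.10-fold lower in shBAP1 (2.46 to 3.94) and had a ratio of 1.36 in shPRAME (1.18 to 1.56). Receptors under the count minimum went both ways in shPRAME. TNFRSF1B, which encodes tumour necrosis factor receptor 2, had 86, 19 and 3 counts in shPRAME, shBAP1 and shEmpty. TLR2 had 4, 46 and 11 counts and TLR3 had 7, 62 and 41 in the same order.

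Ligand genes were scarce. Of 13 listed tumour necrosis factor and interleukin 1 family ligands 2 were measured, and TNF, LTA and LTB had no count in any library, for which the limit is set at 3 counts, or 0.164, 0.202 and 0.160 CPM in shPRAME, shBAP1 and shEmpty. TNFSF12, which encodes the TNFRSF12A ligand TWEAK, was 2.20-fold higher in shPRAME (1.5 to 3.27), with 88, 33 and 41 counts in shPRAME, shBAP1 and shEmpty. TNFSF13B, the B cell factor BAFF, had 0, 202 and 4 counts in that order and was 63.7-fold higher in shBAP1 (24.5 to 236). TNFSF12 passed the count minimum only through shPRAME and TNFSF13B only through shBAP1. The interleukin 1 genes, under the count minimum, had 90, 5 and 12 counts (IL1A) and 58, 2 and 6 counts (IL1B) in the same order. Their counts were highest in the library where IRAK2 was highest.

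Of the other target genes that were called, most were higher in shPRAME and most were lower in shBAP1, against the same shEmpty library. Of 22 measured NF-kB targets besides the 10 genes, 7 were called higher and 1 lower in shPRAME, with a median log2 ratio of 0.22, and 1 higher and 7 lower in shBAP1, with a median of -0.33. The shares over all measured genes were 10.2% higher and 9.08% lower in shPRAME (median -0.06) and 5.53% higher and 8.56% lower in shBAP1 (median -0.03). In each of these comparisons 14 of the 22 were not called. As the list was chosen with earlier results of these data known, its distance from all measured genes is no test. The lower gene in shPRAME, CD83, was 2.01-fold lower (1.43 to 2.84) and was not called under the other 3 scalings. In shBAP1 1 more gene passed the 2-fold limit under total-count and upper-quartile scaling. Set against shBAP1 directly, 8 of the 22 were called higher and 2 lower in shPRAME, against 14.2% and 10.9% of all measured genes. CXCL8, which encodes the neutrophil chemoattractant interleukin 8, was at 2208 CPM in shPRAME, 11.5 CPM in shBAP1 and 51.9 CPM in shEmpty, and LIF, a cytokine of the interleukin 6 family, at 939, 23.0 and 95.3 CPM. PTGS2, the inducible cyclooxygenase, was at 54.4, 1.95 and 18.5 CPM in the same order. All 3 were called higher in shPRAME and lower in shBAP1. In shBAP1 PTGS2 was 9.45-fold lower (6.46 to 14.3), CXCL8 4.53-fold (3.85 to 5.36) and CCND1, which encodes cyclin D1, 4.17-fold (3.98 to 4.38). CSF1, the macrophage growth factor, was higher in both, at 3.45-fold in shPRAME (3.04 to 3.92) and 2.71-fold in shBAP1 (2.37 to 3.10). SDC4 and TNFAIP6, picked with their values known, were 2.34-fold and 2.08-fold higher in shPRAME and 2.22-fold and 2.64-fold lower in shBAP1. Targets that were not called in shPRAME lay on both sides of shEmpty. IRF1 was at 0.695 times shEmpty there (0.534 to 0.900), SOD2 at 0.785 times (0.672 to 0.917) and TAP1 at 1.37 times (1.17 to 1.62), also picked with their values known. Several targets taken as typical had few or no counts, with IL6 at 1, 0 and 0, VCAM1 at 0, 1 and 0 and CXCL10 at 0 in all 3 libraries.

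**Figure D5:**
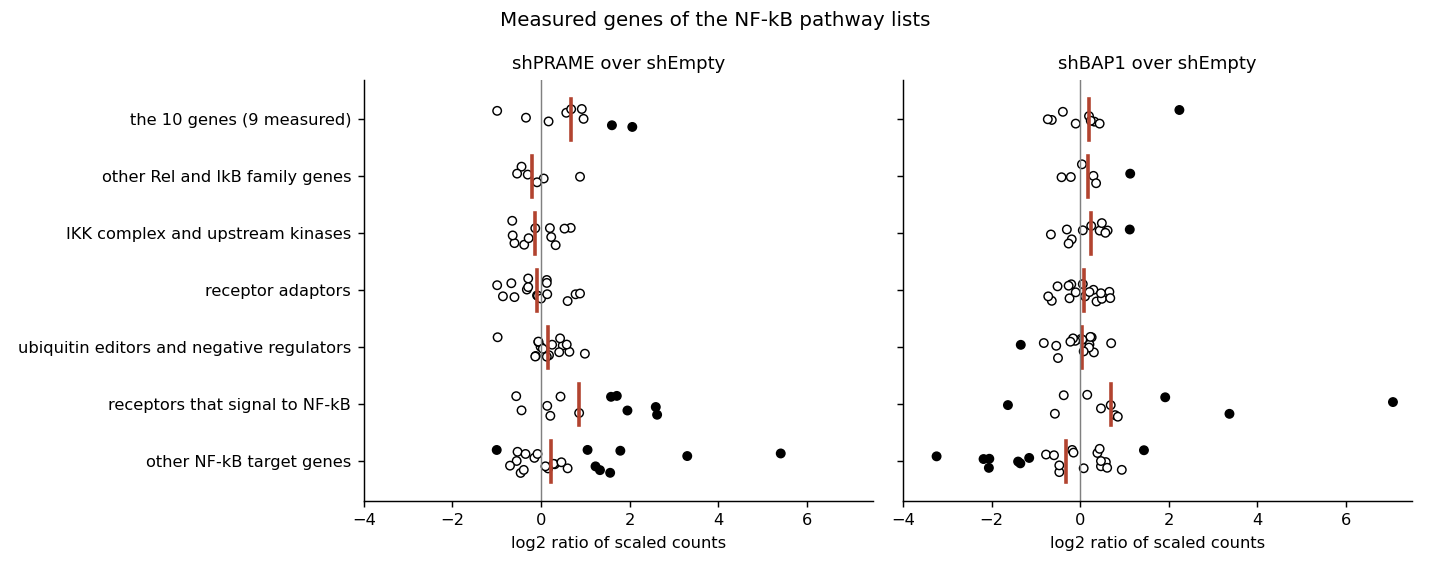
Log2 ratios of scaled counts for the measured genes of each pathway list, shPRAME over shEmpty on the left and shBAP1 over shEmpty on the right, with filled points for called genes and a bar at each list's median. Called genes lie mostly among the receptors and the other targets, where shPRAME has 7 targets called higher and 1 lower and shBAP1 has 1 higher and 7 lower.

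The genes whose pair of log2 ratios to shEmpty lay nearest to that of IRAK2 (2.06 in shPRAME and 0.44 in shBAP1) were C7orf13, ICA1, CDK14, LOC284454 and CALCOCO1. Their distances were 0.07, 0.12, 0.14, 0.14 and 0.15 log2 units over these 2 ratios, and each ratio rests on 1 library per population.

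NF-kB genes are abundant in leukocytes, endothelium and fibroblasts, so markers of those cells were read beside them. Of 12 immune markers 1 was measured, CD68, a lysosomal protein, and the summed level of the list was 151 CPM in shPRAME, 65.5 CPM in shBAP1 and 51.7 CPM in shEmpty. CD68 was called higher in shPRAME (log2 ratio 1.56) and was not called in shBAP1 (log2 ratio 0.33). CD3D and CD3E had no count in any library and PTPRC (CD45) had 52, 32 and 40. Of 8 endothelial markers 2 were measured, with summed levels of 51.5, 13.3 and 79.5 CPM, and CDH5 had no count in any library. The measured endothelial markers went opposite ways. TIE1, an endothelial receptor kinase, had 359, 11 and 3 counts and was called higher in both knockdown libraries, at 123-fold (41.6 to 597) in shPRAME and 4.63-fold (1.22 to 25.8) in shBAP1. It passed the count minimum only through shPRAME. KDR, a receptor for vascular endothelial growth factor, had 572, 170 and 1476 counts and was called lower in both, at 2.52-fold (2.28 to 2.78) in shPRAME and 6.88-fold (5.87 to 8.11) in shBAP1. Of 8 fibroblast markers 5 were measured. In shPRAME 3 of them were called higher and 0 lower, against 10.2% and 9.08% of all measured genes. In shBAP1 2 were called higher and 2 lower, against 5.53% and 8.56%. The summed levels of the list, 794, 272 and 73.5 CPM, were carried in the knockdown libraries by COL1A2, with 12250, 2529 and 119 counts. The other fibrillar collagens were scarce, with COL1A1 at 23, 3 and 1 and COL3A1 at 13, 66 and 1. FAP had 1188, 878 and 535 counts and was called higher in both knockdown libraries. FBLN1, with 151, 6 and 75 counts, was called higher in shPRAME and lower in shBAP1, and passed the count minimum only through shPRAME. PDGFRA, with 447, 33 and 263 counts, was called lower in shBAP1. Of 6 keratinocyte markers 1 was measured, with summed levels of 27.5, 53.7 and 34.5 CPM. The part of other cell types in the values of the NF-kB genes was not tested.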

How the data were processed

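Messenger RNA of 3 A375SM populations (shPRAME, shBAP1 and shEmpty, 1 library each) had been prepared with a directional kit and sequenced as paired reads of 100 bases, per the labels' protocols. The authors deposited whole-number read counts per gene symbol, without normalization. The submitters' processing notes name the build hg19 (GRCh37) and the tools TopHat, Cufflinks, FastQC and edgeR. Which tool counted reads, on which annotation, is not given in the sources used here. Every row named a gene, and 4896 of 24424 had no count.

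Groups came from the sample titles. Counts were scaled by TMM over the whole table (edgeR 4.0.16, R 4.3.3). Genes averaging 50 or more counts counted as measured. The average ran over all 3 libraries, so a gene could pass through 1 library alone, also the one where it was then called higher. A call required a ratio of at least 2-fold and an exact 95% conditional binomial interval that left out no change. A count of 0 entered ratios as 3 counts. 3 comparisons were made without a test, since each group was 1 library. Calls compare libraries, not conditions. The procedure and the motif search were tested on simulated data.

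The 10 genes, the pathway lists and the marker lists (171 further genes, all in the table) were chosen with earlier results of these data known. In each pathway list, and likewise in the marker lists, up to 3 called genes with the largest ratio were named per comparison with shEmpty. The 5 genes nearest to IRAK2 and list genes under the count minimum with a role in the pathway were also named. Promoters came from RefSeq (GRCh38.p14) and exon lengths from GENCODE release 29. These were matched by symbol and served no count. As alternatives, scaling was by total count, upper quartile or DESeq2 1.42.0. The minimum was set to 10, to 200 or dropped. Calls were also made at 1.5-fold, at 3-fold, with intervals wholly past 2-fold, and after adding 1 CPM to each level. Python 3.11.15 with scipy 1.17.1 was used.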

Additional observations from a re-analysis of the deposited data

How the results depend on the processing

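Across the 10 alternatives, 1 ratio of a measured member turned round, that of NFKB1 in shBAP1 against shEmpty (log2 ratio 0.02 under total-count scaling). In shPRAME against shEmpty 4 of 9 members were called under upper-quartile scaling, where RELB and BCL3 joined, beside 2316 of 11956 genes. With a mean of at least 200 counts 1 of 8 was called, where IRAK2 was not measured. With a mean of at least 10 counts or no minimum 3 of 10 were called, where BIRC3 joined. With the 1.5-fold limit 6 of 9 were called, 5 higher and 1 lower. In shBAP1 against shEmpty 2 of 10 were called with a mean of at least 10 counts or no minimum, where BIRC3 joined as well. With the 1.5-fold limit 3 of 9 were called, 1 higher and 2 lower. In shPRAME against shBAP1 5 of 9 were called with the 1.5-fold limit, 4 higher and 1 lower, and 1 with the 3-fold limit. With a mean of at least 200 counts 2 of 8 were called there. Over all measured genes in shPRAME against shEmpty, 2311 calls became 3251 (mean of at least 10), 1534 (mean of at least 200) and 3774 (no minimum). They became 4903 (1.5-fold), 991 (3-fold), 1611 (intervals wholly past 2-fold) and 2047 (1 CPM added). In shBAP1 against shEmpty 1685 became 2543 (mean of at least 10), 1008 (mean of at least 200) and 3016 (no minimum). They became 3645 (1.5-fold), 778 (3-fold), 1098 (intervals wholly past 2-fold) and 1435 (1 CPM added). In shPRAME against shBAP1 3006 became 4097 (mean of at least 10), 2099 (mean of at least 200) and 4727 (no minimum). They became 5749 (1.5-fold), 1361 (3-fold), 2148 (intervals wholly past 2-fold) and 2752 (1 CPM added). The genes counted were 11956, except where the minimum changed. They were 14202 with a mean of at least 10, 9574 with a mean of at least 200 and 19528 with no minimum. Counts of calls under different minimums are therefore not of the same genes. No paired analysis was possible because each group is 1 library and no test was made. Depth limits BIRC3 and IRAK2 most, with 11 and 28 counts in shEmpty.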
